A study of Mus musculus with 8 samples.

Results

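The regions described here are the stretches of open chromatin that were called in every one of the 3 GFP control libraries of retinal ganglion cells (RGCs), sorted from retinas after optic nerve crush. Peaks on chromosomes 1 to 19 that shared at least 1 bp were merged across the 3 lists, and merged regions with a peak in all 3 lists were kept, which left 91443 of 143492 regions (63.7%). The study profiled 8 samples in all by ATAC-seq, in which a transposase cuts and tags accessible DNA, to ask how Ezh2 and its Y726D form act on RGCs during axon regeneration. Only the 3 GFP samples were used here and no comparison with the other groups was made. These mice were adult C57BL/6J, for which the study's methods name both sexes. They received AAV2-GFP in the vitreous body, their optic nerve was crushed 2 weeks later, and RGCs were enriched from the dissociated retina by fluorescence-activated cell sorting 3 days after the crush, with 50000 cells per library. Virus injection, crush and sorting were shared by all 8 ATAC-seq samples. Uninjured or uninjected RGCs were not analysed here. The study's methods sorted on CD90.2 (Thy1) with dead cells gated out, and AAV2 injected into the eye also reaches other retinal cells. The labels do not say how many animals went into a library or whether the 3 samples came from separate animals, so the spread given below is the spread between these samples and may be technical.

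Open chromatin marks DNA that nucleosomes leave accessible to proteins. Starts of active genes are its best known sites, and enhancers, insulators and other elements away from genes make up most of the rest. RGCs are the output neurons of the eye, their axons form the optic nerve, and after a crush they switch on transcription factors of the AP-1, ATF and KLF families that are well known from injured neurons. In a peak list, a narrow peak gives the stretch in which the reads exceeded the local background, and its fold gives the read pileup at the summit over that background.

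Strength was taken as the rank of this fold. Each peak's fold was turned into its percentile within its own list, the highest peak of a list was used for each region, and the 3 percentiles were averaged. Width was the length of the merged region. Fold and its p-value together fix the number of reads stacked at the summit and the local background, in reads, and these were solved for every peak. All of the 115710, 112939 and 133674 peaks of GFP 1, 2 and 3 gave a whole number of reads, with a tolerance of 0.0002 on the −log10 p scale. Above its lowest value, the background moved in whole steps of 0.02 reads for 100% of peaks in all 3 lists, with a tolerance of 0.002 reads, as an average over a window far longer than a peak would. The caller named by the submitters, MACS2, can take this background from the reads around the peak, so reads of a wide open region can enter the background against which its own fold is measured.

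Promoters at both ends of the 2 rankings are shown, because strength and width picked different genes. Espl1, which encodes separase, the protease that splits sister chromatids, and Psmc4, a subunit of the proteasome's ATPase ring, lay under the 10th and 12th strongest regions. Hivep2, a zinc finger transcription factor, and Jun, a subunit of the AP-1 factor induced in injured RGCs, lay under the 2nd and 3rd widest. Each sequence runs from 250 bases before to 50 bases after a RefSeq start, 5′ to 3′ on the gene's strand, in build GRCm38.p6. The windows are chr15:102296043-102296342 on the plus strand for Espl1, chr7:28050043-28050342 on the minus strand for Psmc4, chr4:95052173-95052472 on the minus strand for Jun and chr10:13966129-13966428 on the plus strand for Hivep2. Capitals mark matches on either strand to CCAAT (the NF-Y site), GGGCGG (the GC box bound by Sp factors), TTTGAA (the core of the cell cycle homology region, CHR), TGACGTCA (the CRE) and TGANTCA (AP-1).
Espl1: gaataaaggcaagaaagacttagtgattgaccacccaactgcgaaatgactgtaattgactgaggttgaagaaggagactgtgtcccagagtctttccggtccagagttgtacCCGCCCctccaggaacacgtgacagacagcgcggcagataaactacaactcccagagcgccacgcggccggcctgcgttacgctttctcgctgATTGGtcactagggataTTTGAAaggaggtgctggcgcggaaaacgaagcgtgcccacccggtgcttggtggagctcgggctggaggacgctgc
Psmc4: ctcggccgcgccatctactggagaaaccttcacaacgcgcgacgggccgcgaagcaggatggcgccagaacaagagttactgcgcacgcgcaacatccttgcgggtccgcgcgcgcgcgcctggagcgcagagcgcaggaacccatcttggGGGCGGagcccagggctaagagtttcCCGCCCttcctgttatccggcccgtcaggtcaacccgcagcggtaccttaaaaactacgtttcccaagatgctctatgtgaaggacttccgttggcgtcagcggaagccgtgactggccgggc
Jun: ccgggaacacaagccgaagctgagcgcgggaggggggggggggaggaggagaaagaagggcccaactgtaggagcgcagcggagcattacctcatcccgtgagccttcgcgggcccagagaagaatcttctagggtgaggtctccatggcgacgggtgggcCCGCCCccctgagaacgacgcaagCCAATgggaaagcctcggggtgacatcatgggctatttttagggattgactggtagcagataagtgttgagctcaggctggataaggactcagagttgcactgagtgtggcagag
Hivep2: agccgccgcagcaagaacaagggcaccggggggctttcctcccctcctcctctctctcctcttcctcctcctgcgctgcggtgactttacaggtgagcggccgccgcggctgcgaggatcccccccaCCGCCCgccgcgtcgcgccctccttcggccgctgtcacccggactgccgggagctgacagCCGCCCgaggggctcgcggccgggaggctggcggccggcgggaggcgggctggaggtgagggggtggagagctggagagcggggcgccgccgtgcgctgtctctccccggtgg
The Espl1 window held 1 NF-Y match, 1 GC box and 1 CHR match, and the Psmc4 window held 2 GC boxes. The Jun window held 1 NF-Y match and 1 GC box, and the Hivep2 window held 2 GC boxes. None of the 4 windows held a full CRE or AP-1 match. A match is a match of letters and not a bound site, and its absence concerns this window only.

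The 3 lists held 113763, 111036 and 131339 peaks on chromosomes 1 to 19 (118713 ± 11019, SD, n = 3). GFP 3 held the most peaks, and 70.9% of them lay in regions called in all 3 lists, against 83.0% for GFP 1 and 85.4% for GFP 2. Of the merged regions, 21471 (15.0%) were called in 2 lists and 30578 (21.3%) in 1 list, and these were left out. Total read numbers were not part of the files, and the median summit pileup was 26, 24 and 29 reads. The local background never fell below 3.25, 2.69 and 3.74 reads, and 36.6%, 36.3% and 37.9% of peaks sat at that floor. The regions called in all 3 lists covered 74.0 Mb, with a median width of 718 bp and a range from 210 to 4318 bp. Only 1065 of them (1.16%) were longer than 2000 bp and 24 were longer than 3000 bp. The number of regions ran from 2598 on chromosome 19 to 7215 on chromosome 2. Chromosome 7 had the fewest per protein-coding gene (2.86) and chromosome 18 the most (6.45).

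The order of the regions by fold was shared across the libraries. Spearman's rank correlation of fold over the 91443 regions was 0.874 between GFP 1 and 2, 0.879 between GFP 1 and 3 and 0.878 between GFP 2 and 3. These are correlations across regions, which share sequence and mappability and are not independent replicates. A region's percentile ranged over a median of 12.7 points between the 3 lists, and its summits lay within a median of 61 bp of each other. In the strongest 1% the median summit range was 12 bp.

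Among these regions, 14572 (15.9%) lay within 1 kb of the start of a protein-coding gene, 42828 (46.8%) lay elsewhere inside such a gene and 34043 (37.2%) lay between genes. Regions at starts were wider and deeper than the rest. Their median width was 1221 bp, against 667 bp inside genes and 668 bp between genes. Their median pileup was 108 reads, against 28.7 and 27.3 reads. Their median fold was 8.07, against 5.00 and 5.59. They made up 24.6% of the open base pairs.

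**Figure D1:**
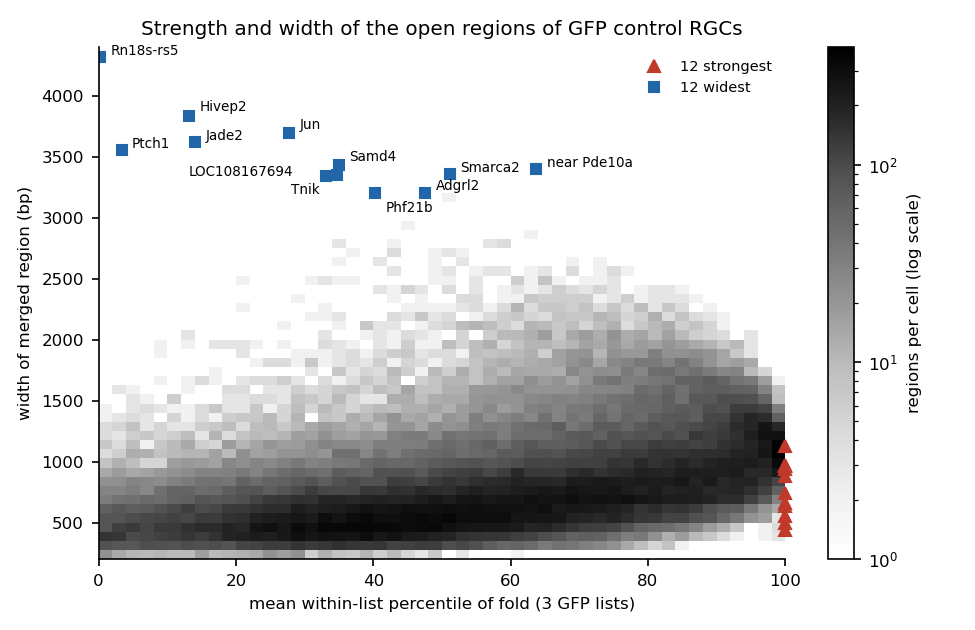
Mean within-list percentile of fold (horizontal) against width in bp (vertical) for the 91443 regions, with the number of regions per cell on a logarithmic grey scale. Red triangles are the 12 strongest regions, which are 435 to 1125 bp wide, and blue squares the 12 widest, whose percentiles run from 0.264 to 63.8, so that the 2 sets lie far apart.

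The 12 strongest regions were short, 435 to 1125 bp, with mean folds between 18.5 and 22.8. Of them, 6 lay at the start of a protein-coding gene. Cdc25c, a phosphatase that triggers entry into mitosis, had folds of 20.9, 20.8 and 19.9 in GFP 1, 2 and 3 and pileups of 146, 136 and 148 reads. No start was listed on chromosome 18, where Cdc25c lies, so its region may be at either end of the gene. Gins4, a subunit of the GINS complex in the replicative helicase, had folds of 19.2, 20.5 and 19.1. Tpx2, a spindle assembly factor that activates Aurora A, had folds of 18.0, 19.7 and 18.0. In all 3 genes the values of the libraries lay close together, and no library was the highest throughout. Espl1 had folds of 18.0, 19.7 and 18.2 over the promoter printed above, with pileups of 98, 85 and 110 reads over backgrounds of 4.50, 3.36 and 5.10. Cpsf1, a subunit of the machinery that cleaves and polyadenylates mRNA, had folds of 18.1, 18.9 and 18.5. Psmc4 had folds of 18.3, 18.3 and 19.04. Cdc25c, Gins4, Tpx2 and Espl1 are known from DNA replication and cell division, and Cpsf1 and Psmc4 from general cell upkeep.

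The other 6 of the 12 strongest regions lay away from a start. A 657-bp region 281658 bp from Pex2, a peroxisome biogenesis gene, was the strongest of all, with folds of 23.5, 22.4 and 22.4 and pileups of 276, 257 and 280 reads. A 556-bp region inside Cdk8, which encodes a kinase of the Mediator complex, had folds of 21.7, 21.0 and 21.3. A 635-bp region 60781 bp from the Wnt scaffold gene Axin2 overlapped the long noncoding RNA gene Gm36876 and had folds of 20.7, 20.7 and 21.0. These regions had sharp borders, since the 3 lists placed the peak over 650, 654 and 654 bp near Pex2 and over 556, 553 and 553 bp in Cdk8. Their summits differed by 1 bp between lists near Pex2 and in Cdk8 and by 85 bp near Axin2. The sequence under regions away from a listed start was not read, and no filter for repeated or poorly mappable sequence was applied here. Whether reads of repeated sequence were stacked in these regions was not tested. A 739-bp region 5475 bp from Srbd1 had folds of 19.9, 19.9 and 19.1. A 498-bp region inside Gphn, which encodes the inhibitory synapse scaffold gephyrin, had folds of 19.2, 19.7 and 19.5. A 435-bp region 8186 bp from Rimbp3 had folds of 18.4, 20.3 and 18.4 and the lowest pileup of the 12, 77, 74 and 86 reads. The background of that region was at the floor of the list in GFP 1, 2 and 3. Just below these 12, the start of Utp20, a factor of ribosome assembly, had folds of 17.4, 20.3 and 18.1. Of the 30 strongest regions, 23 lay at a start, with Knstrn and Cenpf (kinetochore and spindle), Smn1 (snRNP assembly), Mrps17 and Mrps18a (mitochondrial ribosome) among them.

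The 12 widest regions were another set, with 9 at gene starts, 1 inside a gene and 2 between genes. Their widths ran from 3201 to 4318 bp and their mean percentiles of fold from 0.264 to 63.8. The widest, 4318 bp on chromosome 17, overlapped Rn18s-rs5, a copy related to 18S ribosomal RNA. It had the highest pileups of the 3 lists, 332, 333 and 343 reads, over backgrounds of 156, 156 and 171 reads, so its folds were 2.12, 2.13 and 1.99. Ribosomal RNA sequences occur in many near-identical copies in the genome, and the reads of this region cannot be assigned with certainty. Hivep2 followed with 3837 bp, pileups of 125, 121 and 153 reads and folds of 3.19, 3.49 and 3.29. Its summit moved by 2932 bp between the lists, so the lists placed the highest point at different positions of the region. Jun was the 3rd widest with 3695 bp, pileups of 172, 167 and 191 reads and folds of 3.91, 4.11 and 3.58. The Jun region also overlapped the antisense RNA gene Junos, and its summits lay within 23 bp. Over this region the local background was 43.3, 39.9 and 52.7 reads, above the median summit pileup of all peaks in each list.

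The remaining wide starts belonged to several kinds of regulator, and some of these widths rested on 1 library. Jade2, which encodes a subunit of a histone acetyltransferase complex, had a region of 3618 bp with pileups of 96, 87 and 115 reads. Without GFP 3 it was 2646 bp. Ptch1, the Hedgehog receptor, had a region of 3554 bp with pileups of 120, 117 and 139 reads, and it was 2006 bp without GFP 1. Smarca2, an ATPase of BAF chromatin remodelers, had a region of 3357 bp with pileups of 186, 194 and 220 reads. GFP 3 held the highest pileup at each of these loci, as it did over the lists as a whole. Samd4, an RNA-binding repressor of translation, had 3432 bp, which fell to 2238 bp without GFP 2 and to 1672 bp without GFP 3. The kinase gene Tnik had 3352 bp, which fell to 2317 bp without GFP 3. The start of LOC108167694 had 3342 bp and that of Phf21b, a PHD finger gene, had 3201 bp. A 3206-bp region lay inside Adgrl2, which encodes a latrophilin adhesion receptor, and a 3396-bp region lay 16048 bp from the phosphodiesterase gene Pde10a. Without GFP 3 the Pde10a region was 1336 bp, so that it and Samd4 were then narrower than the 2044 bp at which the widest 1% began. In 7 of the 12 at least 1 list split the region into several peaks, and the Pde10a region held 3, 4 and 2 peaks. Mtfp1, just outside these 12, had 3194 bp. Further down the 30 widest were the starts of Epha4 (3187 bp), an ephrin receptor, Foxo3 (3175 bp), Nrp1 (3038 bp), a semaphorin co-receptor, and Dnmt3a (2975 bp), a DNA methyltransferase.

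**Figure D2:**
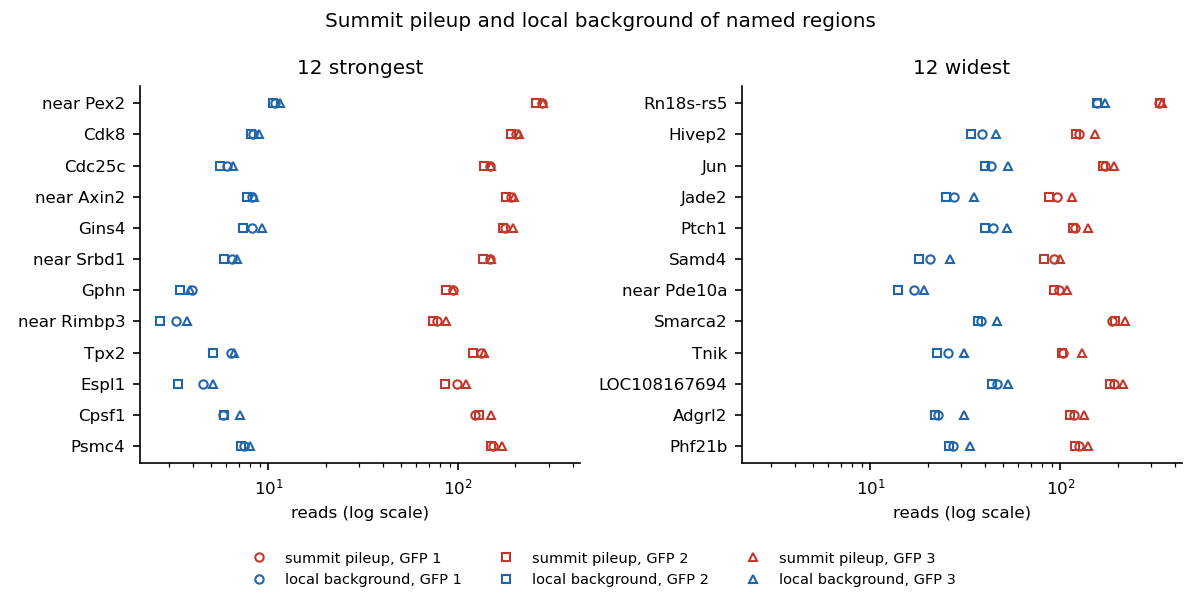
Summit pileup (red) and local background (blue) in reads, on a logarithmic axis, for the 12 strongest (left) and 12 widest regions (right) in GFP 1 (circles), GFP 2 (squares) and GFP 3 (triangles). Pileups overlap between the panels, whereas the mean backgrounds run from 3.22 to 10.95 reads on the left and from 16.7 to 161 on the right.

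Strength and width did not meet at the top. The strongest 1% and the widest 1% held 914 regions each and shared 0 of them, and the highest percentile among the widest 1% was 94.7. Both sets lay mostly at starts, with 82.8% of the strongest and 80.1% of the widest. Their median pileups were close, 126 reads for the strongest and 123 for the widest. Their median backgrounds were 7.36 and 20.8 reads, and their median folds 15.0 and 5.78. Median widths were 1050 and 2246 bp, and the strongest 1% reached no further than 1681 bp. When the 914 regions with the highest mean pileup were taken in place of fold, 94.4% lay at a start. Their median width was 1509 bp, and they shared 30 regions (3.28%) with the strongest and 87 (9.52%) with the widest. Each set held 1% of all regions, which is the share to set beside these overlaps and the 0 above. Across all 91443 regions, percentile and width had a Spearman's rank correlation of 0.546 and pileup and width one of 0.647. These correlations are across regions that share libraries and base composition.

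The position of regions changed along each ranking. Cut into 10 bins of equal size, the share at starts was 9.28% in the weakest bin by fold, 5.64% in the next and 55.0% in the strongest. By width it went from 3.20% in the narrowest bin to 62.1% in the widest, and by pileup from 2.32% to 85.1%. The weakest bin by fold held the largest share of regions inside genes among the bins of that ranking, 66.8%. Regions between genes made up 27.4% of the strongest bin by fold and 6.89% of the bin with the highest pileup.

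**Figure D3:**
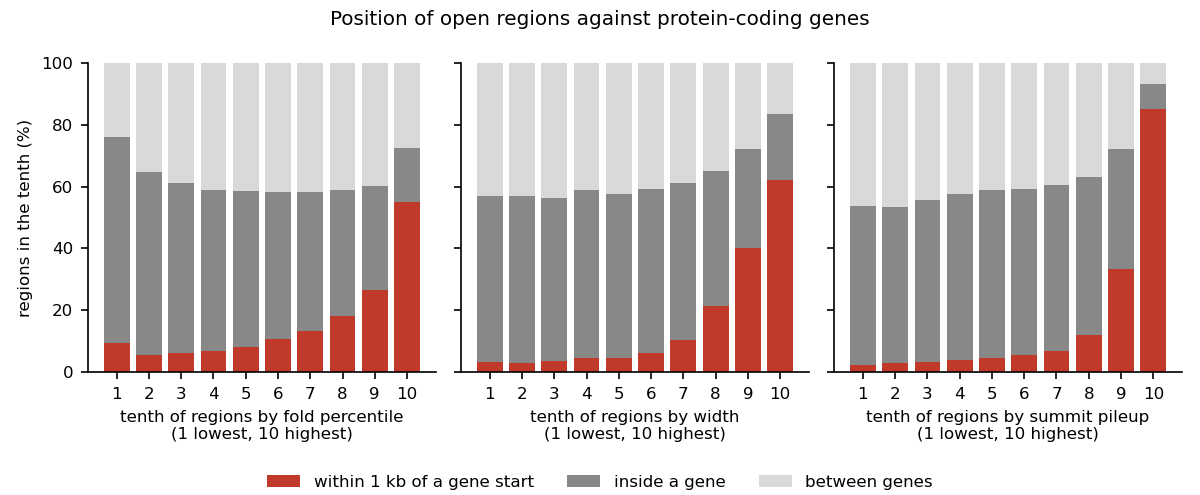
Share of regions in percent that lay within 1 kb of a protein-coding gene's start (red), elsewhere inside a gene (dark grey) or between genes (light grey), for 10 bins of equal size by fold percentile (left), width (middle) and summit pileup (right). The red share reaches 55.0%, 62.1% and 85.1% in the highest bin.

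Summits of regions with a high fold sat close to the start of transcription. For 11456 regions with a listed RefSeq start, the median position of the summit was −25, −25 and −22 bp from it in GFP 1, 2 and 3, where negative values are upstream, and 74.6%, 74.5% and 74.7% of summits were within 200 bp. For the 623 such regions of the strongest 1% the medians were −32, −34 and −32 bp, and 96.1%, 96.3% and 96.5% were within 200 bp. For the 560 of the widest 1% the medians were −44, −45.5 and −40 bp, and 61.3%, 62.9% and 63.8% were within 200 bp. All 3 libraries gave this order, with the strongest regions the most tightly centred of the 3 sets and the widest the least. The close centring held for strength by fold, since in the 1% with the highest pileup the medians were −91, −92 and −81 bp and 76.6%, 77.0% and 77.4% were within 200 bp.

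**Figure D4:**
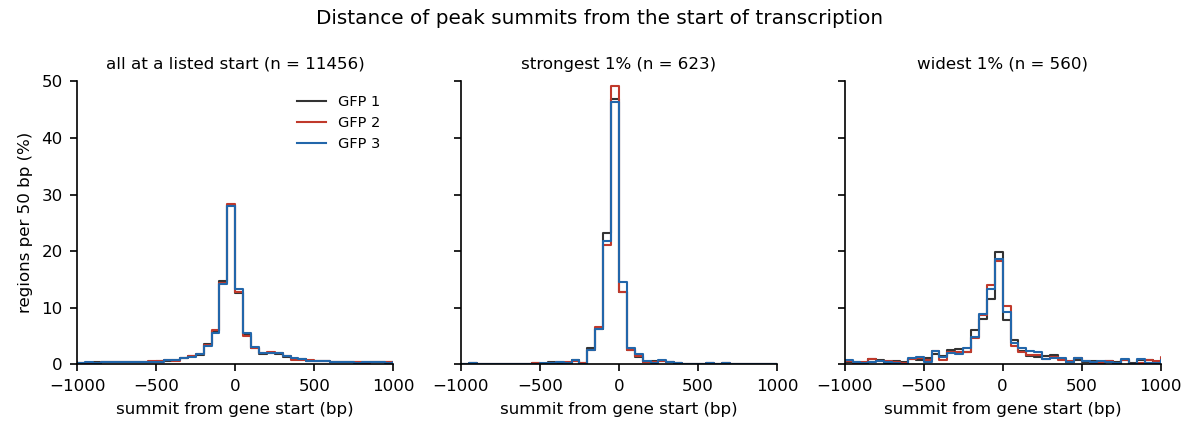
Distance in bp from the RefSeq start to the peak summit (negative values are upstream), as percent of regions per 50 bp, in GFP 1 (black), GFP 2 (red) and GFP 3 (blue). The strongest 1% (middle, n = 623) crowd just upstream of the start, and the widest 1% (right, n = 560) spread further than all regions at a listed start (left, n = 11456).

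Promoter sequence was read over the same 300-base windows as printed above, for 20062 windows of protein-coding genes, of which 12911 lay at a region. Median GC content was 58% under the strongest 1% of regions, 66.7% under the widest 1%, 62% in windows with any region and 57% over all windows. The ratio of observed to expected CpG was 0.785, 0.810, 0.765 and 0.585 in the same order, and 0.188 in windows with no region. Each motif was searched on both strands, and its shares are given for the strongest, the widest, windows with any region and all windows. CCAAT was found in 57.1%, 33.3%, 37.1% and 38.1% of windows. GGGCGG was found in 60.7%, 74.7%, 65.7% and 47.0%, and CCGGAAGT, the ETS site, in 20.1%, 2.31%, 7.82% and 5.28%. Among the 4 sets the ETS letters were most frequent under the strongest regions and least under the widest, and the GC box was most frequent under the widest and least over all windows. These contrasts depended on the measure of strength. With the strongest 1% taken by −log10 q or by pileup, the GC box share was 77.6% or 83.4%, above that of the widest regions, and the ETS share was 10.2% or 6.09%. TATAAA was found in 6.82%, 6.66%, 6.39% and 12.7%, and the AP-1 letters TGANTCA in 4.28%, 4.62%, 4.74% and 7.06%, so both sets were close to windows with any region. TTTGAA, which was added to the search after the strongest regions had been seen, was found in 15.0%, 7.61%, 10.7% and 15.4%. TGACGTCA was found in 2.54%, 2.04%, 3.22% and 2.30%, the NRF1 site in 1.74%, 0.815%, 2.01% and 1.34%, and the E-box CAGNTG in 42.6%, 38.9%, 43.9% and 48.5%. TAATTA, the homeodomain core, was found in 2.81%, 1.49%, 2.25% and 4.48%, TAATCC, the site of Crx and Otx factors, in 5.21%, 3.26%, 5.33% and 6.42%, and the Ebf site in 0.401%, 1.77%, 1.02% and 0.982%. Windows follow the base composition of their set, so these shares describe letters and say nothing of binding.

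Open chromatin far from genes made up a further group, with 14292 regions (15.6%) over 50 kb from any protein-coding gene. The strongest of these were the regions near Pex2 and Axin2 described above, ranked 1st and 4th of all. The next, 929 bp over the long noncoding RNA gene BC002059 and 53220 bp from Gm51425, had folds of 16.9, 18.1 and 17.5. A 400-bp region 137241 bp from Rab10 had folds of 18.9, 18.4 and 16.0, and a 425-bp region 262655 bp from Mc2r had 17.0, 17.1 and 17.5. Pileups of these last 3 differed, from 181, 188 and 207 reads over BC002059 to 71, 62 and 82 reads near Mc2r. The near-equal folds came with backgrounds of 9.80, 9.42 and 10.9 reads at the former and at the floor of the list at the latter. Repeated sequence was not tested for in these regions either.

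A few strong regions were uneven across the libraries. Among regions with a mean percentile of at least 90, the widest spread was at a 795-bp region on chromosome 18 that lay 1045914 bp from Cbln2, with folds of 6.83, 12.8 and 13.9 and pileups of 28, 46 and 65 reads. A 939-bp region inside Rab8a had folds of 7.08, 13.3 and 10.5, and a 994-bp region 262412 bp from Rbfox1 had 7.30, 13.4 and 10.1. The 1042-bp region 82699 bp from Rbms3 had 9.42, 7.87 and 12.03, and the 816-bp region inside Vwa3b had 7.54, 10.0 and 13.5. GFP 1 was the lowest library at 4 of the 5 and GFP 2 at the Rbms3 region. No library had more than 65 reads at any of the 5, and all lay away from gene starts.

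The genes with the most open chromatin were very long. Nrxn3, which encodes the synaptic adhesion protein neurexin 3, held 95 regions and 69159 open bp over a length of 1612235 bp. Camta1, a calmodulin-binding transcription activator, held 79 regions and 62947 bp, and Dlg2, which encodes the postsynaptic scaffold PSD-93, held 78 regions and 61216 bp. The adhesion genes Lsamp and Ntm held 76 and 71 regions, Auts2 73, Arhgap26 71 and Gse1 63. The open share of these genes was 4.28% in Nrxn3 and 14.5% in Gse1, the shortest of the 8 with 352883 bp. Counted as a share of the gene and its flanks, the order was another one. Among genes over 20 kb, Caskin1, a synaptic scaffold gene, led with 26.2%, followed by Kdm6b, which encodes an H3K27 demethylase, with 26.0%. Rhof had 24.5%, Prdm8 24.0%, Foxo6 23.6%, Zfp385a 23.6%, Thra, which encodes a thyroid hormone receptor, 23.5% and Nfic 23.5%. These 8 genes were 20184 to 35729 bp long and held 4 to 10 regions each, so their share rests on few regions.

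Marker genes of the labelled cell type were checked at their starts. In this and the later gene lists, a gene's percentile was that of its strongest start region and its width that of its widest. Of 20661 protein-coding genes, 14156 (68.5%) had a region within 1 kb of a start, 27.4% had one in the top 10% by strength, at or above percentile 91.7, and 30.0% had one in the top 10% by width, at or above 1326 bp. For the strongest 1% the share was 4.11% of all genes and for the widest 1% it was 4.07%. Of 20 RGC genes, 18 had a start region, with a median percentile of 65.7 and a median pileup of 49.8 reads, against 87.8 and 119 over all genes with such a region. Atoh7, the factor that specifies RGCs, was the strongest of them with folds of 10.7, 11.4 and 10.5, and the neurofilament gene Nefm was the widest with 2026 bp. Rbpms, a pan-RGC marker, had pileups of 39, 59 and 60 reads and Pou4f1, an RGC transcription factor, had 39, 45 and 57. Slc17a6, the glutamate transporter gene of RGCs, had a weak start region with 18, 14 and 19 reads. Sncg and Nrn1 had none, and the RefSeq table listed no start for Nrn1, which held 2 regions elsewhere in the gene. Thy1, the gene of the sorting antigen, had 86, 74 and 91 reads and belongs to the T cell list as well.

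Starts of genes of other retinal cells were open too. Of 20 rod genes 19 had a start region, all but Rp1, with a median pileup of 86 reads, higher than that of the RGC genes. By fold the order was the reverse, with a median percentile of 59.8 for the rod genes and 65.7 for the RGC genes. Nrl, the rod-specifying factor, had 74, 66 and 77 reads. It lay above Rbpms and Pou4f1 in every library, although its mean percentile was low, at 22.4. Rdh12 and Reep6 were the strongest of the rod genes, at percentiles 94.2 and 86.5. All 10 cone genes had a start region, with a median pileup of 37.8 reads, as did 14 of 15 bipolar genes (58.8 reads, none at Pcp2), 11 of 15 amacrine genes (62.7 reads, none at Tfap2b, Tfap2c, Th and Ptf1a) and 13 of 15 Müller glia genes (82 reads, none at Aqp4 and Gfap). Median percentiles were 52.2 for cone, 54.0 for bipolar, 53.7 for amacrine and 62.2 for Müller genes. The strongest starts were Gnb3 and Kcne2 among the cone genes, Cabp5 and Prkca among the bipolar genes, Calb2 and Slc6a9 among the amacrine genes and Kcnj10 and Clu among the Müller genes, and only Calb2 reached the top 10% by strength. The widest were Thrb with 1934 bp for cones, Prkca with 1801 bp for bipolar cells and Slc6a9 with 1836 bp for amacrine cells. The Müller list had 10 of 15 genes in the top 10% by width (30.0% of all genes) and none by strength (27.4% of all genes). Sox2 was its widest with 2054 bp. Start regions were thus found for genes of RGCs and of other retinal cells alike, and 68.5% of all protein-coding genes had one as well. The shares of these lists ran from 73.3% for amacrine genes to 100% for cone genes. The part that other retinal cells in the sort had in the regions was not tested.

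Lists of immune, vascular and liver cells had an open start in 3 to 12 of their 15 genes, against 68.5% of all protein-coding genes. The shares were 53.3% for microglia and macrophages, 80% for T cells, 60% for endothelial cells and 20% for hepatocytes. Of 15 microglia and macrophage genes 8 had a region, with a median pileup of 29 reads. In the single lists 11, 9 and 12 genes had a peak in GFP 1, 2 and 3 (73.3%, 60% and 80%). The shares of all protein-coding genes were 69.3%, 69.3% and 70.6% there, so this list lay below them in GFP 2 only. C1qb, C1qc, Cx3cr1, Ptprc, Tyrobp, P2ry12 and Cd68 were among those with a region, and Tmem119, Aif1, Csf1r, Itgam, C1qa, Trem2 and Fcgr3 had no region with a peak in all 3 lists. Of 15 T cell genes 12 had a region, with a median of 31.3 reads, led by Tcf7, which was also the widest with 1338 bp, and Lat, and Cd3d, Cd247 and Lck had none. Of 15 endothelial genes 9 had a region, led by Ramp2 and Egfl7, with Esam the widest at 1662 bp, and Pecam1, Cdh5, Tie1, Emcn, Eng and Vwf had none. Of 15 hepatocyte genes 3 had a region, Apoa1, Apoa2 and Apob, and Alb, Ttr, Fga, Fgb, Fgg, Serpina1a, Cyp3a11, Hpx, Ahsg, Tat, Cps1 and G6pc had none. A region within 1 kb of a start can also belong to a neighbouring gene, and for genes without a listed start the ends of the gene stood in for it. Of 20 ubiquitous genes 19 had a region, with a median pileup of 155 reads, Psmb2 being the strongest and Gapdh, with 2698 bp, the widest. The exception, Ywhaz, had no listed start and held 3 regions inside the gene.

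**Figure D5:**
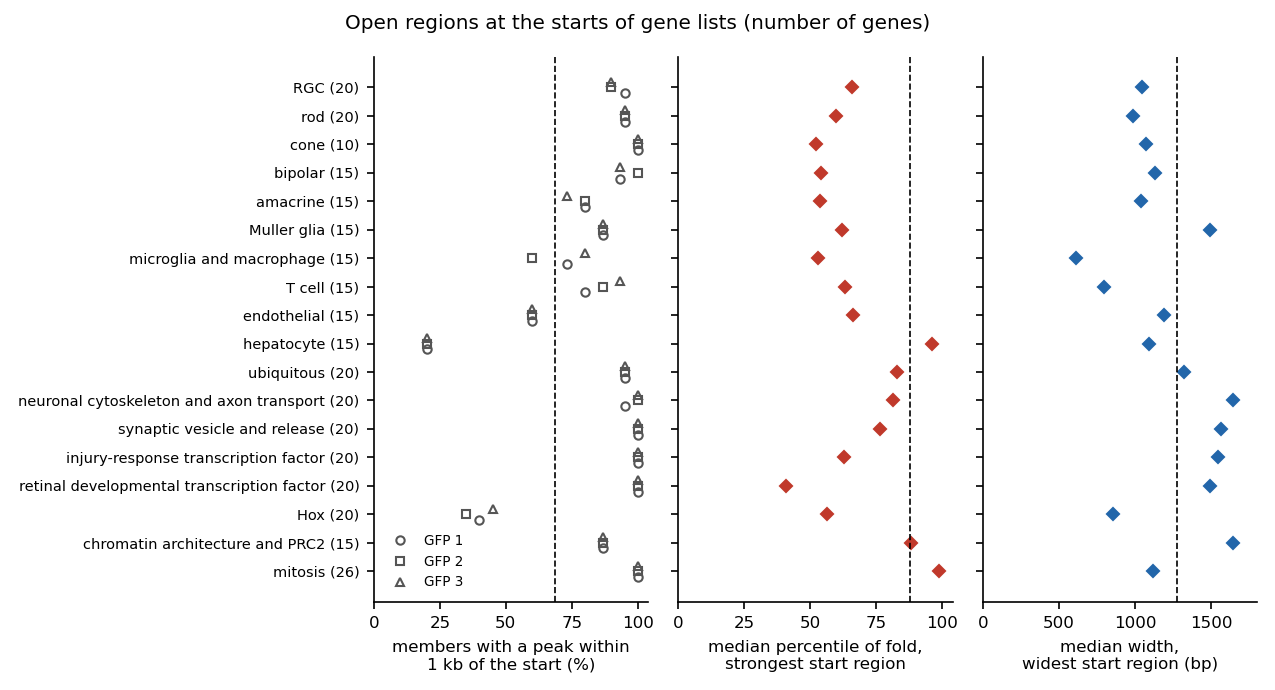
Gene lists, with the number of genes in parentheses. On the left is the percent of members with a peak within 1 kb of the start in GFP 1 (circles), GFP 2 (squares) and GFP 3 (triangles). The other panels cover members with a start region, and show the median fold percentile of each gene's strongest start region (middle) and the median width in bp of its widest (right). Dashed lines are all protein-coding genes with a region in all 3 lists (68.5%, 87.8 and 1276 bp). The share of all genes with a peak in GFP 1, 2 and 3 alone was 69.3%, 69.3% and 70.6%. The injury-response list lies left of the line for strength and right of it for width.

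Injury-response transcription factors were wide and not strong. All 20 had a start region, none in the top 10% by strength (27.4% of all genes) and 17 in the top 10% by width (30.0% of all genes). Their median percentile was 62.9, their median width 1547 bp and their median pileup 165 reads. Jun, Egr1 and Jund were in the widest 1%, which held 4.07% of all genes. Egr1, an immediate early gene, had 2274 bp with pileups of 210, 192 and 225 reads and folds of 4.22, 4.33 and 3.80. Atf3, which forms dimers with Jun in injured neurons, had 1646 bp with pileups of 144, 139 and 161 reads and folds of 5.73, 6.09 and 5.23. Fos had 1992 bp with 165, 157 and 197 reads. Fosl1 and Stat3 were the strongest of the list, at percentiles 89.7 and 84.7, and Junb the weakest at percentile 5.92, although its pileups were 156, 152 and 181 reads. The low ranks of Junb, Fos and Jun by fold were therefore not low ranks by reads. All 3 lay above the median pileup of 119 reads over all genes with a start region. These values come from eyes with a crushed nerve only, and uncrushed RGCs were not analysed here.

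Genes of the neuronal cytoskeleton and of synaptic release showed wide starts as well. Of 20 cytoskeleton and axon transport genes 19 had a start region, 2 in the top 10% by strength and 12 by width (27.4% and 30.0% of all genes). In the widest 1% there were 5 (4.07% of all genes). The tubulin gene Tubb2b was the widest with 2697 bp. Kif3a, a kinesin subunit, and Dync1h1, the dynein heavy chain, were the strongest, at percentiles 98.1 and 93.1. Mapt had no listed start and held 13 regions within the gene. All 20 synaptic vesicle and release genes had a start region, 4 in the top 10% by strength and 14 by width (27.4% and 30.0% of all genes). In the widest 1% there were 4 (4.07% of all genes). Snap25, a SNARE protein gene, had 2598 bp and pileups of 103, 90 and 111 reads at percentile 26.7, and Syn2 and Vamp1 were at percentiles 96.9 and 96.4.

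Of 15 genes of chromatin architecture and Polycomb repressive complex 2 (PRC2), 13 had a start region. By strength 5 (33.3%) were in the top 10%, near the 27.4% of all genes, and by width 10 (66.7%), against 30.0% of all genes. Ezh2, the methyltransferase that the study overexpressed in other samples, had folds of 9.72, 10.6 and 8.96 and pileups of 181, 183 and 195 reads over 1652 bp. Its paralog Ezh1 had folds of 11.7, 13.6 and 10.2, Suz12, a core PRC2 subunit, 11.1, 11.9 and 10.8, and Eed, another, 7.87, 8.05 and 7.89. Smc1b, a cohesin subunit gene, was the strongest of the list at percentile 96.9 and Kdm6b the widest with 2158 bp. Rad21 and Nipbl had none, and the table listed no start for either. Of 20 Hox genes, which PRC2 is known to keep silent in many adult cells, 7 had a start region, with a median pileup of 22.7 reads, against the 68.5% of all genes given above. Hoxa3 and Hoxc6 were the strongest with 58, 54 and 78 and with 30, 27 and 48 reads, and Hoxd9 was the widest with 1078 bp. The 13 without were Hoxa2, Hoxa5, Hoxa9, Hoxa13, Hoxb1, Hoxb5, Hoxb9, Hoxb13, Hoxc4, Hoxc13, Hoxd3, Hoxd10 and Hoxd13. Retinal developmental factors behaved otherwise, with 19 of 20 open, all but Irx2, and 11 in the top 10% by width (30.0% of all genes). Their median percentile was 40.9, with Prdm1 and Lhx2 the strongest at percentiles 86.0 and 83.2, Six3 at percentile 5.01 with 105, 102 and 128 reads, and Neurog2, a proneural factor, the widest with 2470 bp. Pax6 counts in the amacrine list too, Lhx2 in the Müller list and Sox11 in the injury list.

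Genes of mitosis had strong and short start regions. This list of 26 genes was written after the strongest regions had been seen, so its counts describe the ranking and give no support to it. All 26 had a start region, 23 in the top 10% by strength (27.4% of all genes) and 13 in the strongest 1% (4.11% of all genes). By width 3 were in the top 10% (30.0% of all genes). The median percentile was 98.9, the median width 1115 bp and the median pileup 127 reads. Without the 4 genes whose regions were among the 30 strongest, 22 of 22 had a region and 19 were in the top 10% by strength (27.4% of all genes). Of these 22, 9 were still in the strongest 1% (4.11% of all genes). They were written down with the same ranking known, so they are no independent check. Beyond Cdc25c, Tpx2 and Espl1, the chromosome condensation enzyme Top2a had folds of 16.0, 16.7 and 15.4, the checkpoint kinase Bub1 15.9, 15.6 and 16.3, and Cdk1, the kinase of mitotic entry, 14.8, 15.6 and 13.4. Their pileups, 94, 86 and 105 reads for Bub1 and 123, 121 and 135 for Cdk1, lay on low backgrounds. They were near the median of 119 reads over all genes with a start region. The widest of the list was Nuf2, a kinetochore gene, with 1468 bp. Aurkb, a kinase of the chromosomal passenger complex, was among the genes outside the top 10% by strength, with folds of 4.67, 4.73 and 4.16. Open starts do not show expression, and no RNA was measured in these samples. The study sequenced RNA of GFP control RGCs in other libraries, which were not used here. It reports that accessibility at promoters correlated moderately with RNA in each condition.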

How the data were processed

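ATAC-seq libraries of 3 GFP control samples were described, each with its own deposited peak list, grouped as the labels give them. Per the labels, reads were processed with cutadapt, Bowtie2, SAMtools, Picard, MACS2 and deepTools on GRCm38. Versions and the calling threshold were not given in the sources used here. In the lists the authors deposited, each peak has a fold over the local background (a ratio) and a −log10 p-value and −log10 q-value, called per sample. The score column of the deposited lists was not used. Peak names mark the reads as filtered and without duplicates. Total read depth was unknown.

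Peaks were merged, ranked and placed with Python 3.11.15, numpy 2.4.6, pandas 2.3.3 and scipy 1.17.1, and the code was tested on simulated data. Summit pileup N and background b were solved from fold = (N + 1)/(b + 1) and the Poisson p-value. RefSeq (GRCm38.p6) listed a start for 16456 of 20661 protein-coding genes (79.6%) on chromosomes 1 to 19 and for none on chromosome 18. For the others either end of the gene stood in, a departure from the planned use of starts alone. There is 1 group, so no test was run, and values are given per library or as mean ± SD. The members and gene lists were chosen with earlier results of these data known. Named regions were the 12 strongest, the 12 widest, those in the top 100 of both (0), the 5 strongest over 50 kb from a gene, the 5 with the widest percentile range at a mean of at least 90, 8 genes by open bp, 8 genes over 20 kb by open share, and in each gene list the 2 strongest, the widest and those without a region, and further members were named as examples. Some members that this rule names are not reported here. Alternatives were another overlap, threshold, list length, ranking, distance and width, and leaving out each replicate. The Ezh2 and Ezh2-Y726D samples were not used here. Pileups are reads without molecular identifiers, so their precision covers counting only.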

Additional observations from a re-analysis of the deposited data

Results flagged for a closer look

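Peaks outside chromosomes 1 to 19 were not ranked. On chromosome X, 1508 regions had a peak in all 3 lists, from 1897, 1855 and 2275 peaks in GFP 1, 2 and 3. On chromosome Y there were 9 such regions, on the mitochondrial genome 2 and on unplaced sequences 23. They are listed because they fall outside the ranked regions. The study's methods name mice of both sexes, and the labels do not give the sex of the animals of each library. The peaks on chromosome Y numbered 15, 12 and 17. The mitochondrial genome has no nucleosomes, and its merged regions reached 6325 bp, longer than the widest ranked region.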

How the results depend on the processing

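No paired analysis was possible because the description covers 1 group and rests on no test. Of 308 values under alternatives, 230 moved by less than the spread between replicates or, for counts, by no more than 1.5 times, and 78 moved further. With a −log10 q of at least 5, 64.1 Mb were covered, the median width was 791 bp, and 18.97%, 44.3% and 36.7% of regions lay at starts, inside genes and between genes. With a peak required in 2 lists, 82.7 Mb were covered and the median width was 638 bp. The median width was 734 bp with lists of equal length and 734 bp when peaks had to cover 0.5 of a region. Leaving out each replicate gave 632 to 653 bp, 14.6% to 15.6% at starts, 47.1% to 47.8% inside genes and 37.3% to 37.6% between genes. With 3 kb as near, these shares were 19.4%, 44.5% and 36.1%, and 7 hepatocyte genes had a region. With both ends of every gene, 36.5% lay between genes. The ranking decided the strongest regions. By −log10 q, 94.6% of the strongest 1% lay at starts, 7 of the 12 strongest stayed among them, and the NF-Y, ETS and GC box shares were 67.7%, 10.2% and 77.6%. By the mean percentile of summit pileup, chosen after seeing the data and not quite the same set as that by mean pileup, these values were 94.6%, 2, 62.7%, 6.09% and 83.4%. Without each replicate the GC box share was 58.8% to 61.7%, and 80.8% to 82.5% of the widest 1% lay at starts, against 83.8% when width was taken under peaks of all 3 lists. Among gene list counts 107 of 108 changed by no more than 1.5 times. Lists with nearly all members open could not rise by that much, so this says little about their stability. The alternatives with pileup and both gene ends, the mitosis list and the TTTGAA search were added after seeing the data. The cause of these shifts was not tested. Weak regions near the calling threshold have few reads, and a region missing from 1 list may lie below that list's threshold.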
